A study of Mus musculus with 6 samples.

Results

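The cytosolic ribosomal protein genes of mouse intestinal organoids were examined here. The members were all genes whose symbol is Rpl or Rps followed by a number and at most 1 of the letters a, l, x and y, together with Rplp0, Rplp1, Rplp2 and Rpsa. That rule found 83 of the 52249 genes in the table, 51 of them for the large and 32 for the small ribosomal subunit. Of the members, 80 were annotated as protein-coding and 3 as pseudogenes (Rps4l, Rpl6l and Rpl32l). The filter on low counts left 77 members to test, 46 of the large and 31 of the small subunit.

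Organoids are epithelial cultures grown from intestinal crypts. The 3′ ends of polyadenylated mRNAs were sequenced in 6 libraries, each from organoids lacking Apc, a tumour suppressor and brake on the WNT pathway. The labels assign 3 libraries to the group Apc-knockout, called control here, and 3 to the group Apc-knockout_IGF2BP3 OE, called OE-labelled here. OE stands for overexpression of IGF2BP3, an RNA-binding protein that binds and stabilises mRNAs. How Apc was deleted, which promoter drives IGF2BP3, whether a line was 1 clone or several animals were pooled, and the age of the mice are not given in the sources used here. The labels do not state that replicates were separate cultures, so p-values measure only the spread between these samples, which may be technical.

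Library totals ran from 2180116 to 2519917 counts. Library names in the labels fall into separate series for each group, so the library series and the group cannot be told apart. The biological coefficient of variation fitted by edgeR was 3.1% in control and 17.2% in libraries labelled OE. Igf2bp3 itself had 1 count in 1 library of each group and 0 in the others, at or under the 3 counts taken as the detection floor (1.18 to 1.41 CPM, the count scaled to library size), so it gave no check of the label. Apc was counted in every library, at 80.4 ± 4.30 CPM (SD, n = 3) in control and 62.0 ± 2.37 CPM in libraries labelled OE. A 3′ tag outside a deleted exon does not check a knockout. Of 10 intestinal epithelial markers, 9 passed the filter and 5 of these were higher in libraries labelled OE (edgeR adjusted p below 0.05). Of all tested genes 16.5% were higher and 12.7% lower. The sum of all 10 markers ran from 6172 to 6987 CPM in libraries labelled OE, against 4766 to 5073 in control. Cldn7 was lower and Cdx1 was at 0 counts throughout. The fibroblast, endothelial and smooth muscle markers had at most 3 counts in any library. Csf1r was the sole leukocyte marker tested (30.6 CPM in control, 49.1 in libraries labelled OE), with Cd3e, Cd79a and Lyz2 at 0. S100b was the sole glial or neuronal marker tested (48.5 and 107 CPM), with Elavl4 at 0. The part of these differences in the results below was not tested.

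A ribosome is built from ribosomal RNA and 1 copy of nearly every ribosomal protein. The small subunit holds the mRNA and decodes it, and the large subunit joins amino acids and releases the growing chain through a tunnel. The mRNAs of ribosomal proteins begin with a C followed by a run of pyrimidines, the 5′ terminal oligopyrimidine (TOP) tract, through which mTORC1 signalling and the RNA-binding protein LARP1 control their translation and stability. In the intestinal epithelium, WNT signalling and MYC are known to drive ribosome production in crypt progenitors.

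The start sites of 8 members are shown because the results below turn on these genes. Rpl41 and Rps4x had the highest fold changes of the large and the small subunit, Rpl35, Rpl6, Rpl13 and Rps26 were the members that fell, and Rps6 and Rpl15 varied most within a group. Each line gives 15 bases before and 15 bases from the RefSeq transcription start, on the transcribed strand of GRCm38.p6, with the longest run of at least 5 C or T bases in capitals.
Rpl41 (chr10:128549154-128549183, minus strand): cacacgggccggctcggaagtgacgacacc
Rps4x (chrX:102189377-102189406, minus strand): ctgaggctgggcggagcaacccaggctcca
Rpl35 (chr2:39005117-39005146, minus strand): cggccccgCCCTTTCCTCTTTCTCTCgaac
Rpl6 (chr5:121204486-121204515, plus strand): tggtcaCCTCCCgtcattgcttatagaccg
Rpl13 (chr8:123102335-123102364, plus strand): TTCCCTTTCgcctgattttgattggcgttt
Rps26 (chr10:128626492-128626521, minus strand): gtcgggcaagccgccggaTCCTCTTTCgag
Rps6 (chr4:86857353-86857382, minus strand): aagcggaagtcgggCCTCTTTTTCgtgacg
Rpl15 (chr14:18270972-18271001, minus strand): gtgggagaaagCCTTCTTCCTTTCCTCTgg
The windows of Rpl41 and Rps4x hold no such run, and that of Rpl35 holds one of 18 bases. RefSeq promoters were matched for 61 of the 83 members, giving 73 start sites. A run of 8 or more C or T bases on the transcribed strand, within 30 bases on either side of the start, was present at 37 of the 73 (50.7%), against 22.9% of 32851 promoters of all genes. A C at the start followed by 4 C or T bases was present at 14 of the 73 (19.2%), against 2.51% of all promoters. Runs of 8 or more stood at 17 of 31 starts (54.8%) of members that rose in the comparison below, at 3 of 4 starts of members that fell and at 15 of 33 starts (45.5%) of tested members that did not pass the threshold. Start sites of 1 gene share sequence, and the starts are RefSeq's, not measured in these libraries.

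More ribosomal protein genes were higher than lower in the libraries labelled OE. Of the 77 members tested, 37 rose (48.1%) and 4 fell (5.19%) at an adjusted p below 0.05 in edgeR's quasi-likelihood test, whereas 16.5% of all 10687 genes tested rose and 12.7% fell. In bulk libraries, a change in the mix of cells and a change in RNA per cell cannot be told apart. The median log2 fold change of the members was 0.27, against 0.04 over all tested genes, and 2 members, Rpl41 and Rpl35, changed by at least 2-fold. A further 22 members had a positive and 14 a negative estimate without passing the threshold. In 44 members every OE-labelled library was above every control library, in 8 every one was below, and in 25 the groups overlapped. Over all tested genes, 25.3% lay above and 20.5% below without overlap. With an offset for exonic length 25 members rose and 9 fell, beside 13.5% and 10.5% of all genes tested in that setting. Without OE-labelled replicate 1 the numbers were 44 and 8, beside 14.8% and 15.9% of all. Without OE-labelled replicate 3, 38 rose and 7 fell, beside 18.1% and 14.5% of all.

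**Figure D1:**
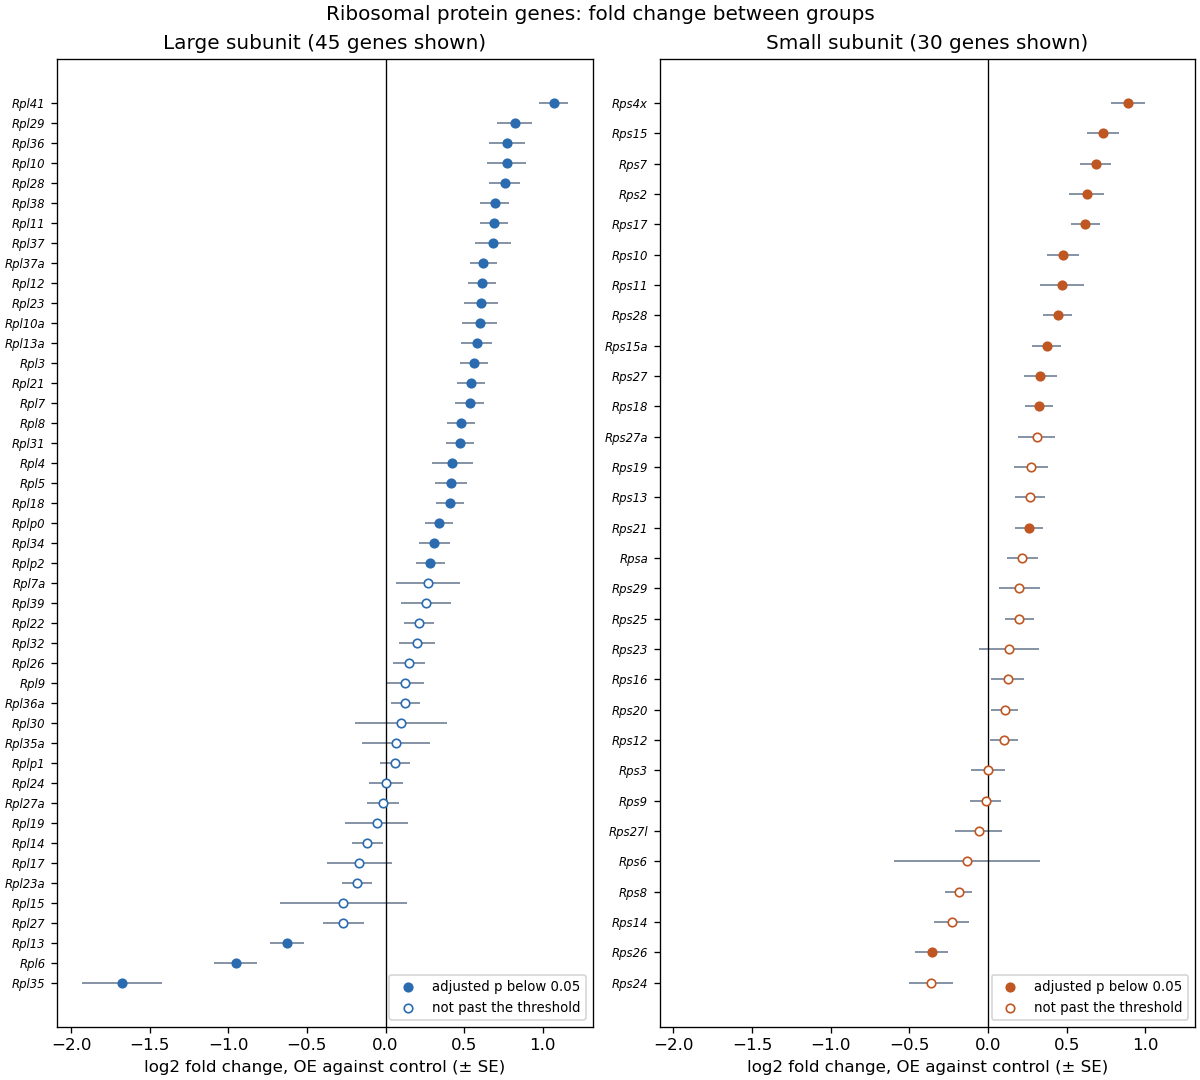
Log2 fold change of OE-labelled over control libraries for 75 of the 77 tested ribosomal protein genes, by subunit, with the standard error as the bar and a filled point where the adjusted p was below 0.05. Most points lie to the right of 0, with Rpl41 farthest right at 1.07 and Rpl35 farthest left at -1.68.

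In both subunits more genes rose than fell. In the large subunit 25 of 46 tested genes rose (54.3%), 3 fell (Rpl35, Rpl6 and Rpl13) and 18 did not pass the threshold, with a median log2 fold change of 0.32. In the small subunit 12 of 31 rose (38.7%), 1 fell (Rps26) and 18 did not pass, with a median of 0.22. No overlap between groups was seen in 27 large subunit genes above and 5 below control, and in 17 small subunit genes above and 3 below. The range of log2 fold changes was wider in the large subunit, from -1.68 to 1.07, than in the small subunit, from -0.36 to 0.89. The difference between the subunits was not tested.

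**Figure D2:**
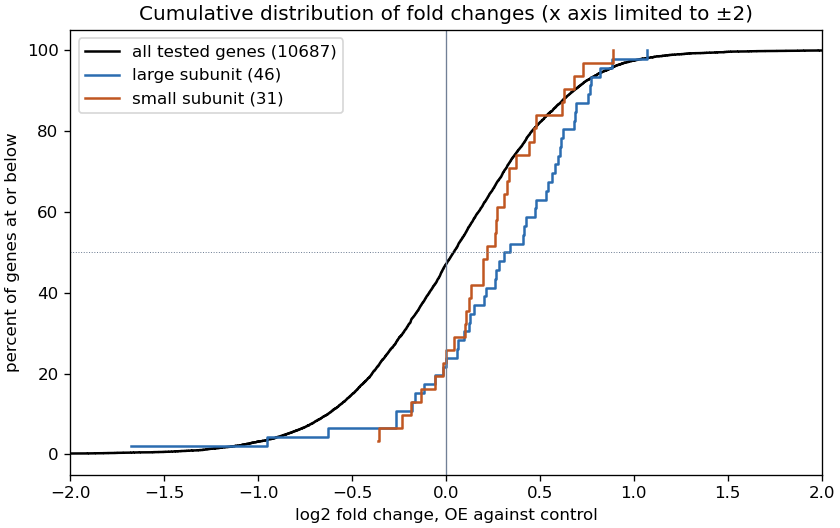
Cumulative distribution of the log2 fold change of OE-labelled over control libraries for all 10687 tested genes, the 46 large subunit genes and the 31 small subunit genes. Both ribosomal curves lie to the right of the curve of all genes over most of their height, with medians of 0.32 and 0.22 against 0.04.

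As a share of all counts, the 83 members took 8.32%, 8.29% and 8.19% of the control libraries and 9.64%, 10.3% and 10.1% of the libraries labelled OE. The means were 8.27% ± 0.0703 and 10.02% ± 0.350 (SD, n = 3), and every OE-labelled library was above every control library. The large subunit had 4.43% ± 0.0327 of control and 5.69% ± 0.166 of OE-labelled counts, and the small subunit 3.84% ± 0.0562 and 4.33% ± 0.193. The ratio of large to small subunit counts was 1.13, 1.17 and 1.16 in control and 1.33, 1.28 and 1.34 in libraries labelled OE, again without overlap. Sums weigh abundant genes most, among them Rpl37, which rose, and Rps26, which fell. Without Rpl37 the members' share was 7.87% ± 0.0625 in control and 9.37% ± 0.412 in libraries labelled OE. The ratio was not computed without Rpl37. These shares depend on what else was counted. The mitochondrially encoded genes and the ribosomal RNA gene CT010467.1 took 16.2% of control but 8.53% of OE-labelled counts, and with both left out the members' share was 9.86% ± 0.0860 in control and 11.0% ± 0.326 in libraries labelled OE. Shares of this kind are relative.

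**Figure D3:**
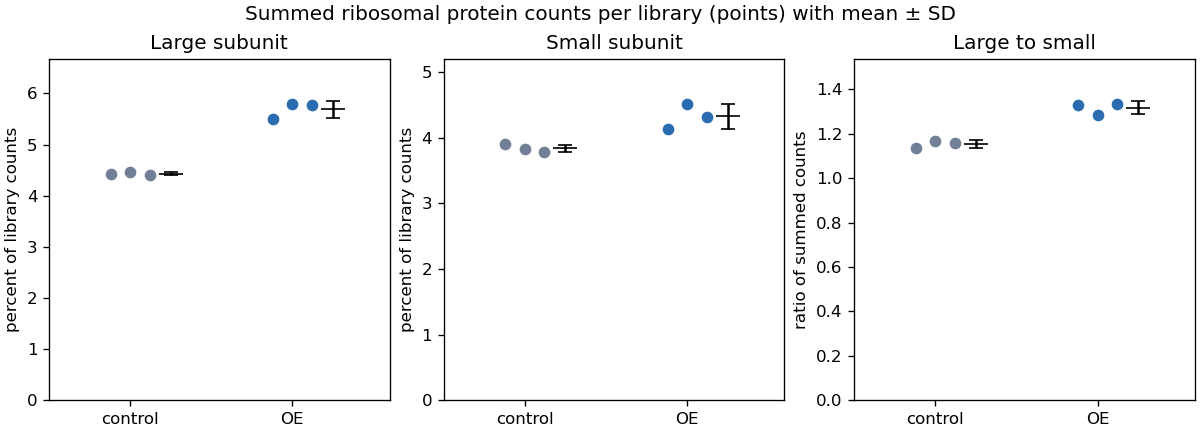
Percent of all counts from large and from small subunit genes, and the ratio of the summed counts, in each library, with 1 point per library and the mean ± SD of each group beside it. In all 3 panels the libraries labelled OE lie above control, with a ratio of 1.28 to 1.34 against 1.13 to 1.17.

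Control levels of the tested members spanned a 44.3-fold range, from 90.7 CPM for Rps6 to 4021 CPM for Rpl37, with a median of 917 CPM. With 3′ tags a gene gives about 1 tag per transcript, and the counts were not divided by length. Rpl37, a small zinc-binding protein of the large subunit, was the most abundant member. It had 4149, 3975 and 3941 CPM in control and 7447, 6661 and 5264 CPM in libraries labelled OE. All 3 OE-labelled values were above control, and the estimated log2 change was 0.68 (edgeR adjusted p = 0.00112, SE 0.12). The other 3 most abundant large subunit genes were Rpl23a, Rplp1 and Rplp2. Rpl23a, whose product sits at the tunnel exit, had 2570.2 ± 94.6 CPM in control and 2266 ± 212 in libraries labelled OE. Its groups did not overlap, yet the change of -0.18 did not pass the threshold (edgeR adjusted p = 0.168). Without OE-labelled replicate 1 it was -0.29 and passed (edgeR adjusted p = 0.00703).

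The most abundant small subunit genes were Rps26, Rps14, Rps12 and Rps24. Rps26, whose product touches the mRNA where it leaves the ribosome, had 3824, 3640.5 and 3462 CPM in control and 2847, 3223 and 2449 CPM in libraries labelled OE. Every OE-labelled library was below every control library, and Rps26 fell by 0.36 on the log2 scale (edgeR adjusted p = 0.0233, SE 0.11). The call was lost when any 1 control library was left out, with the GC offset and at the stricter threshold, with adjusted p up to 0.111. Rps24 had 2403, 2507 and 2451 CPM in control and 1398, 2135 and 2187 CPM in libraries labelled OE. It too was lower in each, mostly in OE-labelled replicate 1, with a log2 fold change of -0.36 (edgeR adjusted p = 0.0698). Without any 1 of the libraries labelled OE it passed the threshold. Rps14 and Rps12 gave -0.23 and 0.10 (edgeR adjusted p = 0.137 and 0.404).

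The member with the highest fold change was Rpl41, which encodes the shortest of the ribosomal proteins, with a coding length of 75 bases (GRCm38, chr10:128548114-128549305, minus strand). It had 827, 825 and 816 CPM in control and 1739, 1607 and 1834 CPM in libraries labelled OE. The control values varied little and all OE-labelled values were far above them. Rpl41 rose by 1.07 on the log2 scale (edgeR adjusted p = 2.42e-05, SE 0.09), or 2.10-fold. Its start site, printed above, holds no pyrimidine run.

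Rps4x, the X-linked copy of a small subunit protein whose human counterpart has a relative on the Y chromosome, followed (chrX:102184941-102189394, minus strand). It had 276, 274 and 288 CPM in control and 559, 455 and 542 CPM in libraries labelled OE. These groups were also well apart, and the estimated log2 change was 0.89 (edgeR adjusted p = 0.000177, SE 0.11). Of the other 3 X-linked members, Rpl10 rose and Rpl36a and Rpl39 did not pass the threshold. Rpl10, which completes the late assembly of the large subunit near the site of peptide bond formation, had 307, 329 and 329.9 CPM in control and 462, 529 and 656 CPM in libraries labelled OE. The libraries labelled OE differed from each other but stayed above control, and the estimated log2 change was 0.77 (edgeR adjusted p = 0.000964, SE 0.13).

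Rpl29 and Rpl36, also large subunit genes, rose as well. Rpl29 went from 141 ± 5.20 to 249 ± 25.4 CPM, a log2 fold change of 0.82. Rpl36 had its highest value, 636 CPM, in OE-labelled replicate 1, with 519 and 489.6 CPM in the others and 311 to 328 CPM in control, for a log2 fold change of 0.77. In both genes the groups did not overlap.

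The member that fell most was Rpl35, whose product lies at the exit of the tunnel, where nascent chains meet targeting factors (chr2:39001580-39005624, minus strand). It had 1667, 1661 and 1632 CPM in control and 253, 677 and 623 CPM in libraries labelled OE. All OE-labelled values were far below control, with replicate 1 the lowest. Rpl35 fell by 1.68 on the log2 scale (edgeR adjusted p = 0.000664, SE 0.26), a level 3.20-fold lower. The fall stayed between -2.003 and -1.403 and past the threshold under all 21 alternatives. The gene overlaps Arpc5l and Wdr38 on the opposite strand, and how strand was used in counting is not given in the sources used here.

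Rpl6, a large subunit protein, had 445, 459.8 and 468 CPM in control and 185, 242 and 282 CPM in libraries labelled OE (chr5:121204481-121209241, plus strand). Each OE-labelled value was below every control value, and Rpl6 fell by 0.95 on the log2 scale (edgeR adjusted p = 0.000478, SE 0.14). Rpl13, another large subunit protein, had 1458, 1475 and 1344 CPM in control and 937, 1030.3 and 801 CPM in libraries labelled OE (chr8:123102350-123105244, plus strand). Here too the groups were apart, and Rpl13 fell by 0.63 on the log2 scale (edgeR adjusted p = 0.00119, SE 0.11). It overlaps the gene model Gm20388 on the same strand and has 6 named pseudogenes, so its counts are less certain. Both genes were lower under all 21 alternatives.

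**Figure D4:**
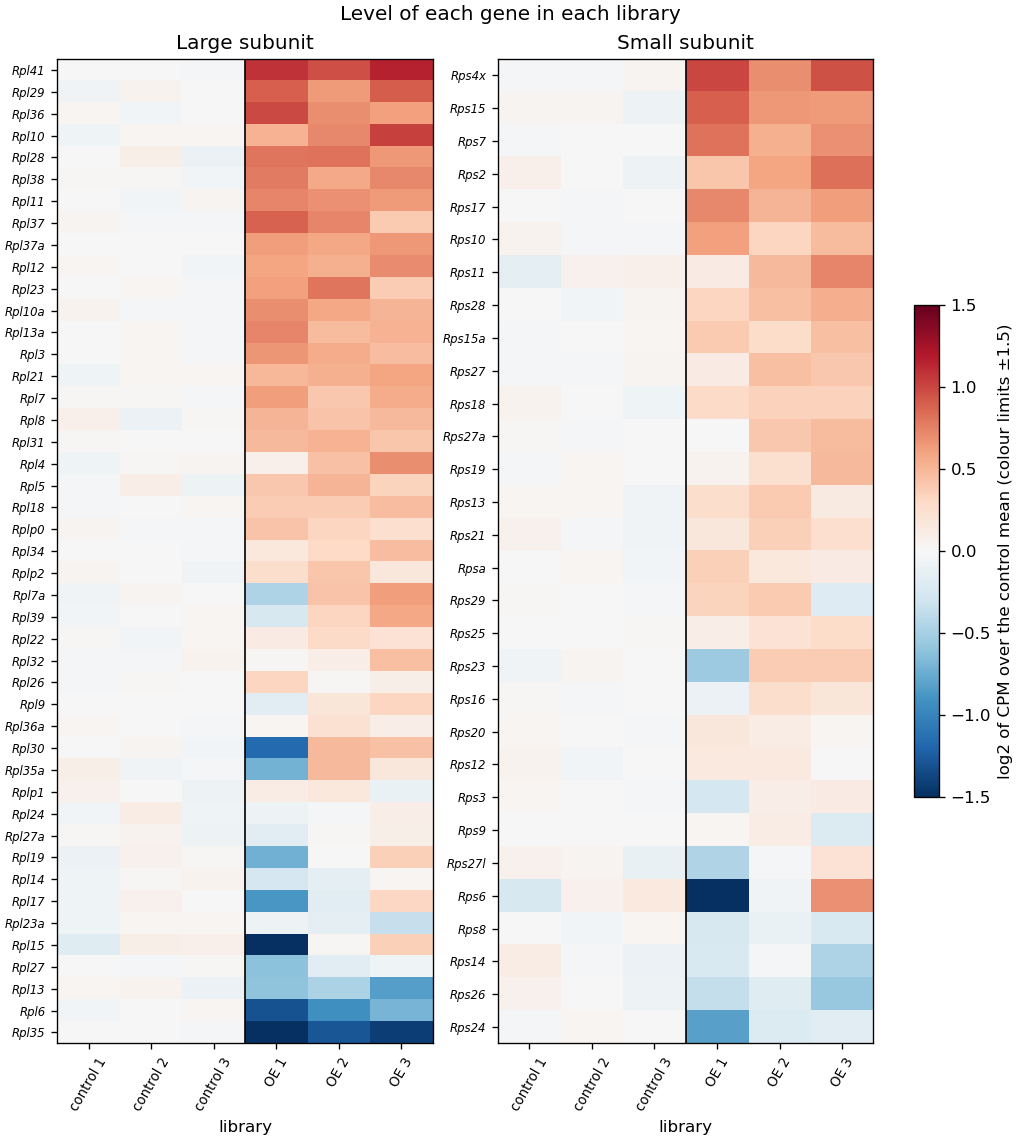
Log2 CPM of 75 tested ribosomal protein genes in each library relative to the control mean, with genes ordered by fold change within each subunit. The 3 control columns are nearly uniform, the OE-labelled columns are mostly above control, and Rpl35, Rpl6 and Rpl13 are below control in all 3 libraries labelled OE.

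By position in the ribosome, 3 of 4 genes of the stalk and its base and both genes of the 5S particle rose. Of all tested members 48.1% rose, and of all tested genes 16.5%, and sets this small were not tested against those shares. The stalk recruits the translation factors that hydrolyse GTP. Of its proteins and the protein at its base, Rplp0 (0.34), Rplp2 (0.28) and Rpl12 (0.61) rose, while Rplp1 gave 0.06 (edgeR adjusted p = 0.665), with 2512 ± 114 CPM in control and 2621 ± 243 in libraries labelled OE. Rpl12 kept its call under all 21 alternatives, but Rplp0 lost it in 8 and Rplp2 in 12, with adjusted p up to 0.356 and 0.608. The losses included each control library or OE-labelled replicate 2 left out, and the GC and exonic length offsets. Rpl5 and Rpl11, which bind 5S ribosomal RNA and can bind MDM2, a regulator of p53, both rose. Rpl11 had 934, 904 and 955 CPM in control and 1547, 1499.8 and 1452 CPM in libraries labelled OE. All of the second group lay above the first, for a log2 fold change of 0.69 (edgeR adjusted p = 0.000256, SE 0.09). Rpl5 went from 374 ± 22.9 to 499 ± 30.1 CPM, a change of 0.42 (edgeR adjusted p = 0.00837), a call lost without control replicate 1, control replicate 3 or OE-labelled replicate 2. Rpl3, next to the peptidyl transferase centre, rose by 0.56, and Rpl38, known for a role in translating Hox mRNAs, by 0.69.

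The rim of the tunnel exit has 8 genes here (Rpl17, Rpl19, Rpl22, Rpl23a, Rpl26, Rpl31, Rpl35 and Rpl39). Rpl31 rose by 0.47 and Rpl35 fell, and the median was 0.05. That is 12.5% in each direction, near the 16.5% and 12.7% of all tested genes. With the exonic length offset Rpl31 was not called. Rpl22 gave 0.21, Rpl26, known to bind Trp53 mRNA, gave 0.15, and Rpl39 gave 0.26, with edgeR adjusted p of 0.103, 0.285 and 0.244. In the small subunit, 1 of the 3 proteins at the mRNA entry (Rps2, Rps3 and Rps9) rose, Rps2 by 0.63, whereas Rps3 had 1304 ± 23.3 CPM in control and 1303 ± 185 in libraries labelled OE. Of the 4 proteins at the mRNA exit, Rps28 rose by 0.44, though not with the exonic length offset. Rps26 fell and the other 2 did not pass the threshold. These positions were grouped with the values known.

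Several small subunit genes are known from Diamond-Blackfan anaemia or p53 signalling. Rps15 went from 868 ± 41.6 to 1441 ± 146 CPM, with no overlap, and rose by 0.73 (edgeR adjusted p = 0.000365, SE 0.10). Rps19, the gene most often mutated in that anaemia, went from 1191 ± 18.8 to 1439 ± 218 CPM, also without overlap, but its change of 0.27 did not pass the threshold (edgeR adjusted p = 0.0801). Without OE-labelled replicate 1 it was 0.31 and passed (edgeR adjusted p = 0.00608). Rps20 gave 0.11 (edgeR adjusted p = 0.373), Rpsa, also known as the laminin receptor, 0.22 (edgeR adjusted p = 0.112) and Rps27a, a fusion of ubiquitin and a ribosomal protein, 0.31 (edgeR adjusted p = 0.0653). Rps27a passed without OE-labelled replicate 1 (0.38, edgeR adjusted p = 0.000931).

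Rps6, the ribosomal protein phosphorylated downstream of mTORC1, had the lowest control level and the widest spread. It had 76.97, 94.8 and 100.4 CPM in control and 15.4, 87.3 and 146 CPM in libraries labelled OE. The OE-labelled values lay on both sides of control, and the estimated log2 change was -0.13 (edgeR adjusted p = 0.854, SE 0.46). Rpl15, a large subunit protein, was also lowest in OE-labelled replicate 1 and highest in replicate 3, with 95.9, 115 and 115 CPM in control and 21.9, 110.1 and 139 CPM in libraries labelled OE. Its estimated log2 change was -0.27 (edgeR adjusted p = 0.653, SE 0.40). Rpl30 was at 409, 1289.8 and 1244 CPM in the libraries labelled OE, against 889.7 to 942 CPM in control. Without OE-labelled replicate 1 the estimates were 0.30 for Rps6, 0.14 for Rpl15 and 0.41 for Rpl30, and Rpl30 alone of these passed (edgeR adjusted p = 0.000416).

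OE-labelled replicate 1 stood apart in a few members. In that library 5 members, or 6.49% of the 77, were at least 2-fold below the mean of the other 2 libraries labelled OE. These were Rps6, Rpl15, Rpl30, Rpl35 and Rpl35a. The same held for 49 of 2055 tested genes (2.38%) with a control mean of at least 90.7 CPM, the lowest of any tested member. Those 2055 genes include the members and were not otherwise matched in level. Rps6 lay 2.84 and Rpl15 2.46 below on the log2 scale. Its median deviation over the members was -0.04, so that most members were close to their level in the other 2 libraries. In OE-labelled replicate 3, Rps6 and Rpl15 were at least 2-fold above the mean of the other 2, which includes the low replicate 1. In replicates 3 and 2, Rps6 had 146 and 87.3 CPM, and Rpl15 had 139 and 110.1 CPM. No member was 2-fold apart from such a mean in a control library or in OE-labelled replicate 2. Rpl15, Rpl30, Rpl35 and Rpl35a each overlap another gene, in each case on the opposite strand, and Rps6 does not on either strand. Of the 77 tested members, 25 overlap another gene on either strand, and a link between overlap and these low values was not tested. Without OE-labelled replicate 1, all 37 members that rose and all 4 that fell kept their calls.

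**Figure D5:**
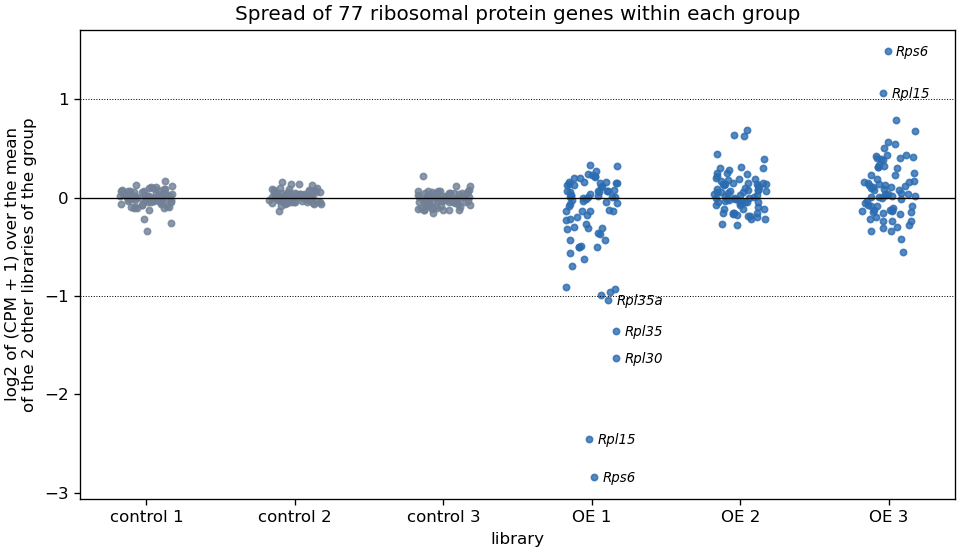
Deviation of each tested ribosomal protein gene in each library from the mean of the 2 other libraries of its group, on a log2 scale of CPM plus 1. The control libraries are narrow, and OE-labelled replicate 1 has 5 genes at least 2-fold below, led by Rps6 at -2.84.

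Ribosomal protein paralogues were compared with their main copies. Rpl3l, Rpl10l and Rpl39l, which are known from muscle and testis, had 0 counts in every library, where 3 counts is the floor. The annotated pseudogenes Rpl6l, Rpl32l and Rps4l had at most 6 counts. Rps27l, a p53 target, made up 17.8% ± 1.29 of the counts of the pair Rps27 and Rps27l in control and 14.04% ± 1.73 in libraries labelled OE, without overlap (18.6, 18.4 and 16.3% against 12.6, 13.5 and 16.0%). In that pair Rps27 rose by 0.33 (edgeR adjusted p = 0.0293) and Rps27l gave -0.06 (edgeR adjusted p = 0.796). The call of Rps27 was lost in 12 of the 21 alternatives, with adjusted p up to 0.445, among them DESeq2, both offsets and each control library or OE-labelled replicate 2 left out. Rpl7l1 was 4.66% ± 0.222 of its pair with Rpl7 in control and 3.93% ± 0.114 in libraries labelled OE, Rpl7 having risen by 0.53. Rpl22l1 was 31.9% ± 1.59 of its pair with Rpl22 and then 24.7% ± 4.03. Both shares were lower in each OE-labelled library. Neither paralogue was itself called, and their estimates had opposite signs. Rpl7l1 gave 0.27 (edgeR adjusted p = 0.113) and Rpl22l1 gave -0.28 (edgeR adjusted p = 0.203). Rpl36al was 9.56% ± 0.533 of its pair with Rpl36a in control and 3.50%, 11.1% and 13.4% in the other group, which overlapped control.

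Of all genes tested 29.2% were called in either direction, and the lists of related genes that follow are read beside that share and beside the 16.5% that rose and 12.7% that fell. Of the ribosomal protein genes that the symbol rule does not take, none was called. Of 7 such genes, among them Rack1 and Fau, edgeR called 0 and DESeq2 0, and 2 had an unadjusted p below 0.05. Their median was 0.20. Rack1, a scaffold on the small subunit, went from 1388 ± 29.0 to 1608 ± 19.8 CPM (log2 fold change 0.21, edgeR adjusted p = 0.0784), with every OE-labelled library above control. Fau, which encodes a small subunit protein fused to a ubiquitin-like protein, gave 0.02 (edgeR adjusted p = 0.904).

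Other mRNAs with a TOP tract were split. Of 15 translation factors and related genes, 6 rose and 3 fell in edgeR's test, against 16.5% and 12.7% of all tested genes, with a median of 0.07. Eef2, the factor that moves the ribosome along the mRNA, rose from 2634 ± 29.9 to 4171 ± 612 CPM (0.66, edgeR adjusted p = 0.000803), and Eif3f, a subunit of an initiation factor, from 554 ± 12.7 to 913 ± 103 CPM (0.72). Pabpc1, the poly(A)-binding protein, had 4823, 5013 and 5224 CPM in control and 1877, 2735 and 2622 CPM in libraries labelled OE. It was lower in each and fell by 1.06 on the log2 scale (edgeR adjusted p = 0.000177). In the mTORC1 and LARP1 axis 3 of 14 genes rose and 2 fell, close to the shares of 16.5% and 12.7% over all tested genes, with a median of -0.02. Eif4ebp1, a repressor of cap-dependent translation, rose by 0.71 and Deptor, an inhibitor of mTOR, by 0.64. The members of the TSC complex, which restrains mTORC1, went opposite ways. Tsc1 fell by 0.72 (edgeR adjusted p = 0.0127) and Tsc2 rose by 0.85 (edgeR adjusted p = 0.0208), and these calls were lost in 3 and 6 of the 21 alternatives. Without control replicate 2 neither gene was called, and without OE-labelled replicate 1 or control replicate 1 Tsc2 was not. Rps6kb1, a kinase of RPS6, fell by 0.39 (edgeR adjusted p = 0.0388), a call lost in 11 alternatives, among them each control library left out. Larp1 gave -0.35 (edgeR adjusted p = 0.133). Myc, named above as a driver of ribosome production, was lower, and any link to the members was not tested. It had 46, 67 and 54 counts in control and 8, 35 and 45 in libraries labelled OE, lowest in replicate 1, and fell by 1.11 on the log2 scale (edgeR adjusted p = 0.0472). The call was lost in 7 of 20 alternatives, among them DESeq2 and each control library or OE-labelled replicate 2 left out.

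Of 11 chaperones and importers of ribosomal proteins, edgeR called 0 higher and 1 lower (29.2% of all tested genes were called), DESeq2 called 1, and 2 had an unadjusted p below 0.05. The gene that fell was Bccip, a chaperone of RPL23, from 30.6 ± 5.70 to 13.8 ± 2.74 CPM (-1.16, edgeR adjusted p = 0.00222). Rpl23 itself rose by 0.61. Of 8 genes of ribosome quality control, edgeR and DESeq2 called 0, and 2 had an unadjusted p below 0.05, with a median of -0.14.

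Features of the genes were at most weakly correlated with the fold changes of the members. Across the 77 tested members, Spearman's rho with the log2 fold change was 0.15 for GC content, 0.01 for coding length, 0.05 for the length of the 3′ untranslated region and -0.24 for control CPM. Over 10268 tested protein-coding genes the first 3 were 0.37, -0.25 and -0.19, and control CPM gave -0.1 over 10271. Control CPM also enters the fold change, so its correlation is partly built in. These correlations describe genes that share libraries and are not replicates. The members' median coding length was 453 bases and their median 3′ untranslated region 89 bases, against 1377 and 1028 over all. A small nucleolar RNA lies within 29 of the members. Of those hosts 13 rose and 2 fell with a median of 0.27, and of the 48 other members 24 rose and 2 fell with a median of 0.29.

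Ribosomal protein genes have many processed copies, which can share their reads. The table holds 317 rows named as pseudogenes of members, which together had 0.456% ± 0.0105 of the members' counts in control and 0.310% ± 0.00734 in libraries labelled OE. Adding their counts to their members left the same 37 genes higher and 4 lower. Another gene overlaps 25 of the tested members. Of these 13 rose and 2 fell, and of the 52 without an overlap 24 rose and 2 fell. In the 13 members with neither an overlap nor a named pseudogene, 7 rose, among them Rpl41 and Rpl11, and 1 fell, which was Rpl6. Named pseudogenes are only the rows with -ps added to a member's symbol, so copies under other names are missed. Rpl6l, an annotated pseudogene with 2 to 6 counts per library, is 1 of these, so Rpl6 is not known to be free of copies.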

How the data were processed

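Per the labels' protocols, total RNA was DNase-treated and made into libraries with a QuantSeq 3′ forward kit. The authors deposited unnormalized estimated counts per Ensembl gene, and the submitters' processing notes name STAR, HTSeq and the builds mm10 and GRCm38. How strand, molecular identifiers and multi-mapping reads were handled is not given in the sources used here. Of the deposited counts 2843 were fractional (33 among members) and were rounded. GENCODE M21 (GRCm38) gave positions and features for 99.5% of identifiers, and RefSeq gave promoters.

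All 6 libraries were fitted with edgeR 4.0.16 (R 4.3.3) after filterByExpr and TMM scaling, without covariates, with Benjamini-Hochberg adjustment over 10687 genes. CPM are TMM-scaled. The standard error is the log2 fold change over the square root of F. Alternatives used limma 3.58.1, DESeq2 1.42.0, other scalings, filters and offsets (loess span 0.5), a replicate block and leaving out libraries. The fit was also run on simulated counts with the same spread in both groups, unlike these libraries (3.1% and 17.2%). That run is no check on the p-values here.

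The members and lists were chosen with earlier results of these data known. Named were the 6 highest and lowest called members, the 4 most abundant of each subunit, fixed role genes and paralogues, untested members, and up to 3 called genes per list. Some items named by this rule are not reported here. Rpl12, Rpl15, Rpl23, Rpl30, Rpl31, Rpl35a, Rps2, Rps28, Larp1, Rps6kb1, Tsc2, Myc, Rack1 and Fau were named after their values were seen. The list counts have no p of their own.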

Additional observations from a re-analysis of the deposited data

How the results depend on the processing

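The count of 37 members that rose lay between 25 and 44 under all 21 alternatives, with 27 to 44 when 1 library was left out. The count of 4 that fell was 9 with the exonic length offset and ran from 3 to 8 when 1 library was left out. Over all genes tested, 13.5% rose and 10.5% fell with the exonic length offset. When 1 library was left out, 9.42% to 18.1% of all rose and 6.52% to 15.9% fell. The median log2 fold change was positive in both subunits under every alternative, and was lowest with the exonic length offset, at 0.14 (large) and 0.06 (small). Of the 37 members that rose, 22 kept their call in all alternatives and 15 lost it in at least 1 (100 of 777 values), and of the 4 that fell Rps26 lost it in 6. The difference in the members' share of counts, 1.75 points, was 1.09 points without mitochondrial genes and CT010467.1. Same-numbered libraries deviated together little (correlations 0.10, 0.02 and 0.07), so the numbers are not known to pair cultures. With the replicate block 36 members rose and 5 fell, beside 16.2% and 12.9% of all tested genes. Adding the GC offset to that block gave 27 and 6, beside 13.7% and 11.7% of all. Signs changed only in members that had not passed the threshold, and the cause was not tested. With the GC offset the values were Rplp1 -0.16, Rps3 0.05, Rps27l 0.10, Rpl30 -0.10, Rpl26 -0.02 and Rps12 -0.04. With the block and the GC offset they were Rplp1 -0.17, Rps3 0.05, Rps27l 0.09, Rpl30 -0.25, Rpl26 -0.03 and Rps12 -0.04. With the exonic length offset they were Rplp1 -0.06, Rpl30 -0.05, Rpl35a -0.04, Rpl26 -0.05, Rps12 -0.09 and Rpl36a -0.08. Under limma-voom, and with a weight per group added after seeing the data, Rpl30 was -0.08 and Rpl35a -0.01. With the replicate block alone they were -0.06 and -0.0023. Rps3 was 0.05 with library totals and 0.00085 with TMM computed without the members. Leaving out 1 library gave ranges of -0.02 to 0.14 for Rplp1, -0.71 to 0.14 for Rpl15, -0.81 to 0.30 for Rps6, -0.09 to 0.06 for Rps3, -0.22 to 0.05 for Rps27l, -0.19 to 0.41 for Rpl30, -0.24 to 0.28 for Rpl35a and -0.0012 to 0.18 for Rpl26.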
